A study of Mus musculus with 18 samples.

Results

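The genes described here are 10 regulators of the G1 phase of the cell cycle, out of 50689 features in a table of unique molecular identifier (UMI) counts. They are the D-type cyclins Ccnd1, Ccnd2 and Ccnd3, the cyclin-dependent kinases Cdk4, Cdk6 and Cdk2, the pocket proteins Rb1, Rbl1 and Rbl2, and the cyclin D-binding protein Ccndbp1. They were chosen by name, and each symbol mapped to 1 mouse Ensembl row. The table holds 18 RNA-seq libraries of satellite cells, which are muscle stem cells, taken from tibialis anterior muscle and cultured on matrigel in growth medium. The 9 scKO libraries are from cells of the genotype Pax7-CreERT2/+;Hoxa10f/f, given 4-hydroxytamoxifen at 1 µM for 2 days; their Cre is tamoxifen-inducible and driven from Pax7, a transcription factor gene of satellite cells. The 9 control libraries are from Hoxa10f/f cells without Cre, and no tamoxifen is stated for them, so that loss of Hoxa10, Cre and tamoxifen cannot be told apart. Both groups have both Hoxa10 copies floxed and the strain C57BL6. Age is not given in the sources used here, nor is it said which libraries, if any, share an animal or a culture; p-values therefore cover the spread between these libraries, which may be technical.

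D-type cyclins bind Cdk4 and Cdk6 and, together with Cdk2 and its cyclins, phosphorylate the pocket proteins. Unphosphorylated pocket proteins hold E2F transcription factors in check, and their phosphorylation lets genes of DNA synthesis be transcribed. In the muscle lineage Rb1 and Rbl2 are known for roles in cell cycle exit and quiescence, and Rbl1 for its expression in cycling cells, where it is itself a target of E2F.

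E2F factors bind sites in many promoters of this pathway, so 4 promoters are shown to let E2F-type letters be seen: those of Rbl1 and Rbl2, the relatives of Rb1, and of Cdk6 and Ccndbp1, whose levels differed in the tests described later. Promoter entries, 250 bases before to 50 bases after a start in RefSeq on GRCm38.p6, matched 7 of the 10 genes. Capitals mark matches to the E2F-type letters TTTNNCGC on either strand, where N is any base. Of the 32851 promoters of the same length, 5.17% hold such a match. Rbl1 is at chr2:157204485-157204784 on the minus strand, Cdk6 at chr5:3343643-3343942 on the plus strand, Rbl2 at chr8:91069807-91070106 on the plus strand and Ccndbp1 at chr2:121008158-121008457 on the plus strand.
Rbl1: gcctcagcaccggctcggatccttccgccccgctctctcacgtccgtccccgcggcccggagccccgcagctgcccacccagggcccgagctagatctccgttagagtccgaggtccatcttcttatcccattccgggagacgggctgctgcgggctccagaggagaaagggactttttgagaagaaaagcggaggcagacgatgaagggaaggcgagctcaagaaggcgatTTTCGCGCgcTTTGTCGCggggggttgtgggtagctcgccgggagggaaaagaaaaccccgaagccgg
Cdk6: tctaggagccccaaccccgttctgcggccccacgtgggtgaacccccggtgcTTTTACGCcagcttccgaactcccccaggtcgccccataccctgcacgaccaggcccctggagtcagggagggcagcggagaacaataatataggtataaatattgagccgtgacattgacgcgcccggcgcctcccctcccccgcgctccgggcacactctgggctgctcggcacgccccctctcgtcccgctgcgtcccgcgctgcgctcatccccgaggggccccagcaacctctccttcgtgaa
Rbl2: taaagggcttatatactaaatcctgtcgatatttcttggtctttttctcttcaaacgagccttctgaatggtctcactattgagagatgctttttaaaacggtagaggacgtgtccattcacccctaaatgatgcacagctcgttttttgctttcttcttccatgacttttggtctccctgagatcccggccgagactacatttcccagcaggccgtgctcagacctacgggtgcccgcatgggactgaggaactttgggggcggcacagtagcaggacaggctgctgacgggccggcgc
Ccndbp1: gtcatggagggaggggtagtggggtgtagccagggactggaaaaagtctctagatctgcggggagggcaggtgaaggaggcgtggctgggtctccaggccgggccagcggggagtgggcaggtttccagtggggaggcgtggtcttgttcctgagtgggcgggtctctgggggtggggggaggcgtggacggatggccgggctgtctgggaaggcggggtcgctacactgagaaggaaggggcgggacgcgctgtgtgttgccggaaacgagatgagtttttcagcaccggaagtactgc
The Rbl1 promoter held 2 matches that do not overlap each other, TTTCGCGC and TTTGTCGC, which begin 18 and 8 bases before the start. Cdk6 held 1, TTTTACGC, which begins 198 bases before the start. The windows of Rbl2 and Ccndbp1 held 0. Of the 7 genes, Cdk2 was the other with a match, 1, GCGGGAAA, in its window at chr10:128705002-128705301 on the minus strand. The palindrome CACGTG, an E-box of the kind that Myc and Max bind, occurred 4 times in the Cdk4 window (chr10:127063285-127063584, plus strand) and once in that of Cdk6, against 7.15% of all promoters with at least 1. A match is a run of letters and not a measured site.

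Library totals ran from 420197 to 5986128 counts. The libraries over 2000000 counts, 3 scKO and 2 control, are called deep, and the other 13, 6 scKO and 7 control, shallow. No count exceeded 4096, the number of different UMIs of 6 bases, so counts of abundant genes flatten in deep libraries. The highest counts of the shallow libraries, 3956 to 4096, were near that limit too. Levels are compared within a depth class only. Among the shallow libraries, scKO 1 and control 7, 8 and 9 stood apart on the 2nd principal component (14.1% of the variance). Those libraries also lay apart on the 1st component (48.6%), at -44.1 to -35.7 against -17.3 to -3.61 for the other shallow libraries. Hoxa10 had 1 to 3 counts in the 6 shallow scKO libraries against 11 to 36 in the shallow controls, and 48 to 75 in the deep scKO libraries against 209 and 328 in the deep controls (log2 fold change -2.54, SE 0.25, edgeR adjusted p = 3.01e-06 with depth class as a covariate). Of the muscle stem cell and myoblast markers, Myod1 had 268 to 4027 counts, Myf5 12 to 1170 and Pax7 8 to 432, while Msc was at 0 in 16 of 18 libraries. Of the leukocyte genes, Ptprc was at 0 in 14 of 18 libraries, and Csf1r had the highest count, 67. Of the tendon genes, Scx had 56 to 2349 counts, while Tnmd was at 0 in 16 libraries and Mkx in 11. The muscle differentiation genes Myh3 and Tnnt3 had at least 1791 and 1733 counts in every library. Levels are given in CPM, counts scaled to the TMM-adjusted library total. Schwann cell markers, summed over 5 genes, were at 35.5 to 52.8 CPM in deep scKO libraries against 19.7 and 28.6 CPM in deep controls, and at 16.4 to 87.2 CPM in shallow scKO libraries against 38.4 to 156 CPM in shallow controls; their part in the results was not tested.

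Of the 10 genes, 1 differed between scKO and control over all 18 libraries with depth class as a covariate. It was Ccndbp1, which was higher in scKO, 1.81-fold (edgeR adjusted p = 0.0131). Among all 7662 genes tested, 0.679% were called in that fit, 0.326% higher and 0.352% lower. All 10 genes passed its count filter, and their median log2 fold change was 0.02, against -0.01 over all genes tested. Within the shallow libraries 0 of the 10 were called by edgeR, against 0.0434% of 6906 genes (0.029% higher and 0.0145% lower). Of the 10, 1 had an unadjusted p under 0.05, and DESeq2 called 0. Within the deep libraries edgeR called 4 of the 10, against 14.3% of 13136 genes, 7.31% higher and 7.03% lower. There Rb1 and Ccndbp1 rose and Cdk6 and Rbl1 fell. DESeq2 called 3 of the 4, all but Rbl1, against 1284 of the 13136 genes. In deep libraries the CPM of scKO and control did not overlap for 5 of the 10 genes, with 3 higher and 2 lower in scKO. That share is close to the 45.2% of all genes tested there without overlap (24.3% higher and 20.9% lower). In shallow libraries the groups overlapped for all 10 genes, where 0.319% of genes had no overlap (0.217% higher and 0.101% lower). A difference of the scKO effect between the depth classes was called for 0 of the 10 genes by edgeR and DESeq2, against 0.0% of 7662 genes by edgeR and 60 genes by DESeq2, and 1 of the 10, Cdk6, had an unadjusted p under 0.05.

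**Figure D1:**
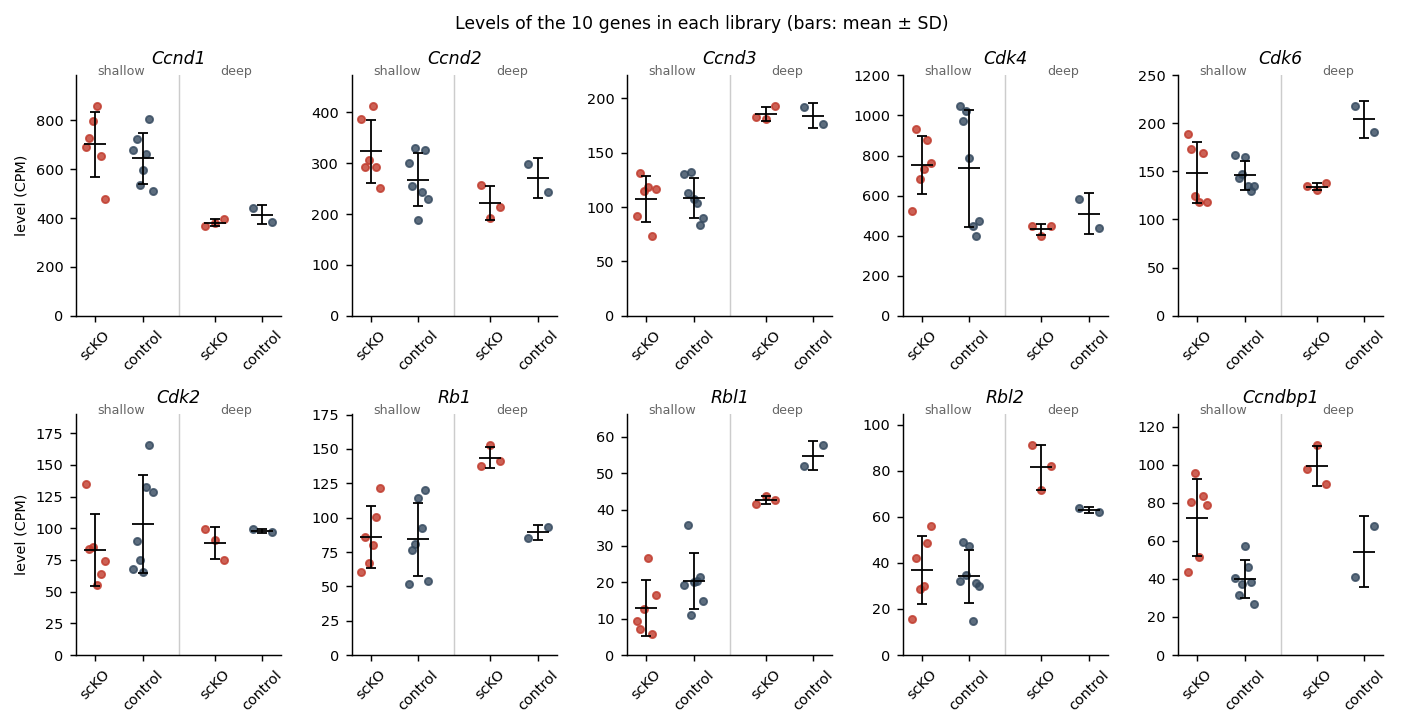
Level of each gene in CPM (y axis, linear, from 0) in every library, with shallow libraries on the left and deep ones on the right of each panel and scKO left of control; bars are the mean and SD (n = 6 scKO and 7 control shallow, 3 scKO and 2 control deep). The mean of Ccndbp1 was higher in scKO in both classes, while the groups of Rb1, Rbl2, Cdk6 and Rbl1 did not overlap in deep libraries and overlapped in shallow ones.

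**Figure D2:**
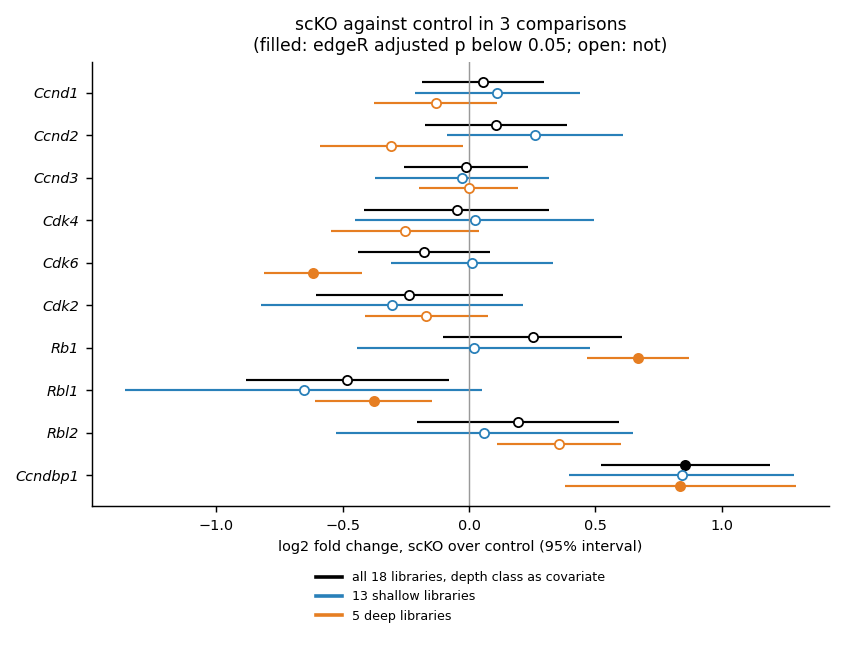
Log2 fold change of scKO over control (x axis) with its 95% interval for each gene in 3 fits; filled points passed an edgeR adjusted p of 0.05. Ccndbp1 lay at 0.84 to 0.86 in all 3 fits, and the deep libraries gave the narrowest intervals for Cdk6 and Rb1.

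D-type cyclins are the growth-factor sensors of G1. Ccnd1 had 477, 710 and 858 CPM as lowest, median and highest of the 6 shallow scKO libraries, against 511, 662 and 805 CPM in the 7 shallow controls. In deep libraries it had 369, 378 and 397 CPM in scKO 6, 7 and 9, against 442 and 385 CPM in control 1 and 2. The groups overlapped in both classes, and the log2 fold change with the depth class was 0.05 (95% interval -0.19 to 0.29; edgeR adjusted p = 0.909). Deep Ccnd1 counts were 63.6% to 70.5% of the 4096 limit in scKO and 58.2% and 75.3% in control, so they understate the true number of molecules. Shallow counts reached at most 16.8% of the limit in scKO and 13.8% in control, and there the log2 fold change was 0.11 (interval -0.22 to 0.44). Correcting counts for UMIs used more than once gave -0.15 in the deep libraries, against -0.13 as deposited, neither an edgeR call.

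Ccnd2, which like Ccnd1 responds to growth factors, had 252, 300 and 413 CPM as lowest, median and highest in shallow scKO libraries, against 189, 256 and 329 CPM in shallow controls. Deep libraries held 258, 192 and 214 CPM in scKO 6, 7 and 9, against 298 and 243 CPM in control 1 and 2. The groups overlapped in both classes and the estimates had opposite signs, 0.26 in shallow and -0.31 in deep libraries (edgeR adjusted p = 0.822 and 0.137). The deep value was -0.16 without control 1 and -0.45 without control 2, and it was called in 1 of 10 alternatives, without a count filter (-0.30, edgeR adjusted p = 0.043). The deep estimate minus the shallow one was -0.57 (interval -1.15 to 0.0231; edgeR adjusted p = 0.828). Ccnd3, the D-type cyclin that stays expressed as myoblasts differentiate, had 73.6, 116 and 131 CPM as lowest, median and highest in shallow scKO libraries, against 83.9, 108 and 132 CPM in shallow controls. In deep libraries it had 183, 181 and 193 CPM in scKO 6, 7 and 9, against 192 and 176 CPM in control 1 and 2. Its values overlapped in both classes, and its log2 fold change with the depth class was -0.01 (interval -0.26 to 0.23; edgeR adjusted p = 0.987). That sign is not stable: the value was 0.09 with the group alone. Ccnd3 has a named pseudogene copy, and how reads shared with it were counted is not given in the sources used here.

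**Figure D3:**
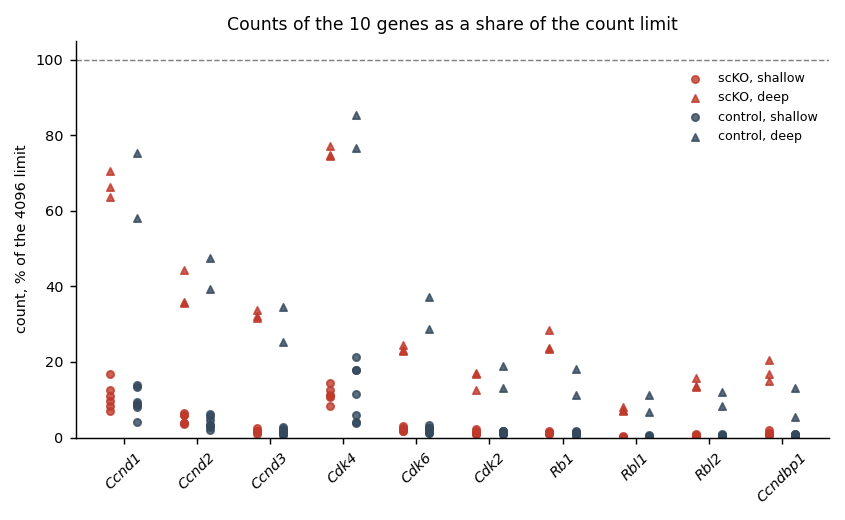
Deposited count of each gene in every library as a percent of the 4096 limit (y axis, linear), scKO left of control, circles for shallow and triangles for deep libraries. Deep counts of Cdk4 lay at 74.4% to 85.3% of the limit and those of Ccnd1 at 58.2% to 75.3%, while the other 8 genes stayed under 48% in every library.

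Cdk4 and Cdk6 are the kinases that D-type cyclins activate, and of these Cdk6 was called in deep libraries. Cdk6 had 135, 131 and 137 CPM in scKO 6, 7 and 9, against 218 and 190 CPM in control 1 and 2. All 3 deep scKO libraries lay below both deep controls, and Cdk6 fell 0.651-fold there (log2 fold change -0.62, SE 0.09, edgeR adjusted p = 0.000884). Cdk6 was called under all 10 alternatives tried in the deep libraries. In shallow libraries it had 118, 147 and 189 CPM as lowest, median and highest in scKO, against 129, 143 and 167 CPM in control. These ranges overlapped throughout, with a log2 fold change of 0.01 (interval -0.31 to 0.33; edgeR adjusted p = 0.993). The deep estimate minus the shallow one was -0.62 (interval -1.14 to -0.11; unadjusted p = 0.0196 from edgeR's fit across all genes, adjusted p = 0.685), so a difference between the depth classes did not pass the test. Without the 4 shallow libraries that stood apart, the Cdk6 estimate was -0.36 with the depth class (edgeR adjusted p = 0.0532) and -0.16 in shallow libraries.

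Cdk4 counts in deep libraries were closest to the limit, 3047 to 3158 in scKO and 3138 and 3493 in control. As deposited, its levels were 447, 399 and 449 CPM in scKO 6, 7 and 9, against 582 and 436 CPM in control 1 and 2, which overlap (log2 fold change -0.25, SE 0.14, edgeR adjusted p = 0.238). With counts corrected for UMI collisions the value was -0.40 (SE 0.11; edgeR adjusted p = 0.0245), which is past the threshold. As deposited, it was -0.0399 without control 1 (edgeR adjusted p = 0.843) and -0.45 without control 2 (edgeR adjusted p = 0.00542), so it turns on which deep control is kept. In shallow libraries Cdk4 had 524, 747 and 935 CPM as lowest, median and highest in scKO, against 398, 788 and 1047 CPM in control. Those 7 controls fell into separate sets, with control 7, 8 and 9 at 448, 398 and 472 CPM and the other 4 at 788 to 1047 CPM. Within the shallow libraries without the 4 that stood apart, the Cdk4 estimate was -0.27 (SE 0.13; edgeR adjusted p = 0.588), against 0.02 with them.

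Cdk2, the kinase of the E-type and A-type cyclins that acts at S phase entry, had 99.3, 90.5 and 74.8 CPM in scKO 6, 7 and 9, against 99.3 and 97.0 CPM in control 1 and 2. In shallow libraries it had 54.9, 78.9 and 135 CPM as lowest, median and highest in scKO, against 65.7, 90.1 and 165 CPM in control. The groups overlapped in both classes, and the log2 fold change with the depth class was -0.24 (interval -0.61 to 0.13; edgeR adjusted p = 0.656), or -0.0986 without the 4 libraries that stood apart. The shallow spread followed the libraries that stood apart: scKO 1 and control 7, 8 and 9 had 128 to 165 CPM of Cdk2, and the 9 other shallow libraries 54.9 to 90.1 CPM. Cdk4 went the other way, with 398 to 524 CPM in those 4 and 681 to 1047 CPM in the 9 others. The 4 libraries were set apart by a component of all genes, so other genes can separate them too. The share of all genes that do was not counted. The muscle differentiation markers, summed over 10 genes, were at 22153 CPM in scKO 1 and 25203 to 26702 CPM in control 7, 8 and 9, against 16766 to 23363 CPM in the 5 other shallow scKO libraries and 14413 to 19327 CPM in the 4 other shallow controls. Their part in the Cdk4 and Cdk2 levels was not tested.

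**Figure D4:**
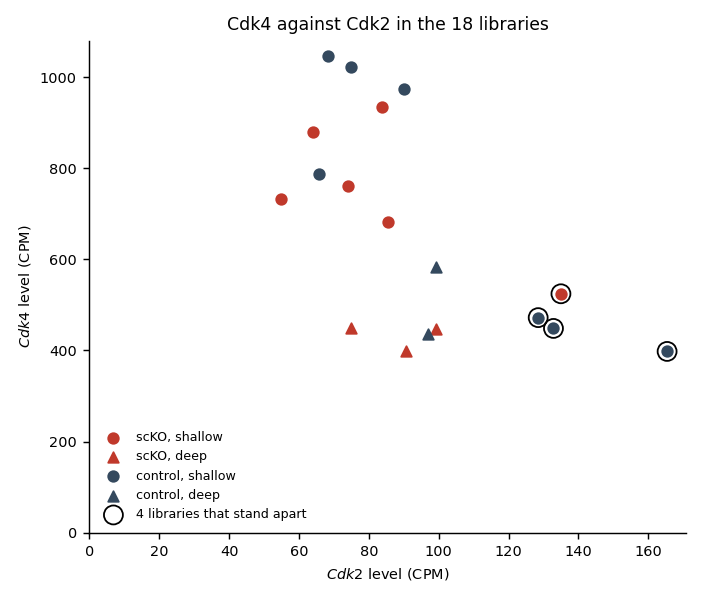
Cdk4 level against Cdk2 level, both in CPM on linear axes from 0, for each of the 18 libraries, with scKO and control in colour and shallow and deep libraries as circles and triangles; the 4 ringed libraries are scKO 1 and control 7, 8 and 9. The ringed libraries had 128 to 165 CPM of Cdk2 and 398 to 524 CPM of Cdk4, apart from the 9 other shallow libraries on both axes.

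Among the pocket proteins, Rb1 rose and Rbl1 fell in the deep libraries. Rb1, the retinoblastoma protein, had 137, 153 and 141 CPM in scKO 6, 7 and 9, against 85.5 and 93.1 CPM in control 1 and 2. Every deep scKO library lay above both deep controls, and Rb1 rose 1.59-fold (log2 fold change 0.67, SE 0.09, edgeR adjusted p = 0.000726), a call that held under all 10 alternatives there. In shallow libraries Rb1 had 60.5, 82.8 and 122 CPM as lowest, median and highest in scKO, against 51.4, 80.5 and 120 CPM in control. The shallow groups overlapped (log2 fold change 0.02, interval -0.44 to 0.48, edgeR adjusted p = 0.993). The deep estimate minus the shallow one was 0.66 (interval -0.04 to 1.36; edgeR adjusted p = 0.836). Over all libraries the Rb1 estimate was 0.25 (edgeR adjusted p = 0.607), and 0.43 without the 4 libraries that stood apart (edgeR adjusted p = 0.0802).

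Rbl1, or p107, the pocket protein of cycling cells, was lower in scKO in the deep libraries. It had 41.6, 43.8 and 42.7 CPM in scKO 6, 7 and 9, against 52.0 and 57.7 CPM in control 1 and 2. All deep scKO libraries lay below both deep controls, and Rbl1 fell 0.769-fold (log2 fold change -0.38, SE 0.11, edgeR adjusted p = 0.0309). Without control 2 or without scKO 6, 7 or 9 that call was lost (edgeR adjusted p = 0.171, 0.0672, 0.0924 and 0.0688), as it was with DESeq2 (adjusted p = 0.0992). Shallow libraries held 3 to 16 Rbl1 counts in scKO and 5 to 27 in control, so these levels are coarse. They were 5.81, 11.01 and 26.6 CPM as lowest, median and highest in scKO, against 11.1, 20.2 and 35.8 CPM in control, which overlap (log2 fold change -0.65, SE 0.34, edgeR adjusted p = 0.822). Over all libraries with the depth class the log2 fold change was -0.48 (interval -0.89 to -0.08; edgeR adjusted p = 0.29), and DESeq2 called it (-0.46, adjusted p = 0.0447). Without the 4 libraries that stood apart the value was -0.44 (edgeR adjusted p = 0.149). This is the gene whose promoter, shown above, holds 2 E2F-type matches close to its start. Whether E2F had a part in these Rbl1 values was not tested.

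Rbl2, or p130, the pocket protein of resting cells, had 91.0, 71.6 and 82.0 CPM in scKO 6, 7 and 9, against 63.8 and 62.2 CPM in control 1 and 2. The deep groups did not overlap, but the value did not pass the test (log2 fold change 0.36, SE 0.11, edgeR adjusted p = 0.0514). It passed in 2 of 10 alternatives, without a count filter (edgeR adjusted p = 0.0165) and without scKO 7 (0.44, edgeR adjusted p = 0.0411), and not with DESeq2 (adjusted p = 0.113). In shallow libraries Rbl2 had 15.5, 35.9 and 55.9 CPM as lowest, median and highest in scKO, against 14.8, 32.3 and 49.0 CPM in control. The shallow groups overlapped, with an estimate of 0.0605 (interval -0.53 to 0.65; edgeR adjusted p = 0.973). The proliferation markers Mki67, Top2a, Ccnb1, Cdk1, Plk1 and Aurkb, all 6 of them detected in every library, summed to 769 to 834 CPM in deep scKO libraries against 1075 and 1246 CPM in deep controls, and to 827 to 1295 CPM in shallow scKO libraries against 1134 to 1646 CPM in shallow controls. The 10 differentiation markers summed to 4262 to 4639 CPM in deep scKO libraries against 3653 and 4969 CPM in deep controls, with several near the count limit. Of those well below it, Myh8 and Ckm were named after their values were seen. Myh8 had 243 to 308 CPM in deep scKO libraries against 135 and 152 CPM in deep controls. Ckm had 222 to 264 CPM in deep scKO libraries against 128 and 153 CPM in deep controls. Among all genes tested in deep libraries, 24.3% were higher in scKO without overlap. In shallow libraries the groups overlapped for both genes. Myh8 had 277 to 575 CPM in shallow scKO against 281 to 570 CPM in shallow control libraries. Ckm had 100 to 211 CPM in shallow scKO against 95.9 to 154 CPM in shallow control libraries. The part of proliferation and differentiation in the values of Rb1, Rbl1, Rbl2 and Cdk6 was not tested. In bulk RNA, fewer cycling cells and less RNA per cell cannot be told apart.

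Ccndbp1 is a helix-loop-helix protein known in human cells to bind D-type cyclins and to dampen E2F-driven transcription. Its gene (ENSMUSG00000023572) lies on the plus strand of chromosome 2 at 121008403 to 121016904 in GRCm38 and overlaps no other gene of GENCODE M21. In shallow scKO libraries it had 43.4, 80.2, 95.9, 51.6, 83.3 and 79.0 CPM in replicates 1, 2, 3, 4, 5 and 8. In shallow controls it had 40.7, 31.8, 37.5, 57.3, 46.1, 38.3 and 26.9 CPM in replicates 3 to 9. The groups overlapped through scKO 1 and 4, which lay below control 6, and the other 4 shallow scKO libraries lay above every shallow control. In deep libraries it had 97.8, 110 and 89.6 CPM in scKO 6, 7 and 9, against 41.0 and 67.5 CPM in control 1 and 2. Here scKO was above both controls, though the controls themselves were far apart. Counts behind these levels were 28 to 83 in shallow scKO libraries and 9 to 34 in shallow controls, and 612 to 842 in deep scKO libraries against 221 and 541 in deep controls.

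The estimates of the Ccndbp1 difference lay close together across the fits. The log2 fold change was 0.86 with the depth class (SE 0.16; edgeR adjusted p = 0.0131), 0.84 within shallow libraries (SE 0.21; edgeR adjusted p = 0.399, unadjusted p = 0.000814) and 0.84 within deep ones (SE 0.20; edgeR adjusted p = 0.0283). The deep estimate minus the shallow one was 0.01 (interval -0.69 to 0.72). Without the 4 libraries that stood apart, the value with the depth class was 0.89 (edgeR adjusted p = 0.00105) and the shallow one 0.92 (edgeR adjusted p = 0.159). The call with the depth class held in 24 of 26 alternatives. It was lost with the group alone (0.90, edgeR adjusted p = 0.109) and without control 1 (0.77, edgeR adjusted p = 0.0729). The deep estimate depended on its 2 controls, with 0.53 without control 1 and 1.26 without control 2, both still called by edgeR. The deep call was lost without scKO 6, 7 or 9 (edgeR adjusted p = 0.0971, 0.0798 and 0.0567).

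Among 6590 other genes with a mean of at least 20 CPM, those whose pattern over the 18 libraries, centred within each depth class, was closest to that of Ccndbp1 were Myh4, Hist1h2bc and Insig2. Their root mean square distances, on profiles scaled to unit SD, were 0.484, 0.557 and 0.565. The profiles kept the difference between scKO and control, so the selection favours genes that differ as Ccndbp1 does. The directions and calls given next are therefore no separate result. Myh4, the gene of the fastest myosin heavy chain, averaged 187 CPM in shallow scKO and 87.2 CPM in shallow control libraries (log2 fold change 1.34, SE 0.20, edgeR adjusted p = 0.00112); its close relatives make its count uncertain. Insig2, which holds back sterol synthesis, averaged 79.5 CPM in shallow scKO and 51.9 CPM in shallow control libraries (0.60, SE 0.12, edgeR adjusted p = 0.0142). Hist1h2bc, a histone gene of a multigene family and so also uncertain, averaged 325 CPM in shallow scKO and 243 CPM in shallow control libraries and was not called (0.47, edgeR adjusted p = 0.0697).

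Among the pathway's other genes, those of DNA synthesis were lower in deep scKO libraries. Of 16 G1/S genes known as E2F targets, 15 fell and 0 rose there, where 7.03% of all genes fell (median log2 fold change -0.72, against -0.00 over all genes tested), with Rrm2 the exception at -0.31. Thymidylate synthase (Tyms), thymidine kinase (Tk1) and the replicative helicase subunits Mcm5 and Mcm3 had log2 fold changes of -1.0, -0.74, -0.93 and -0.72 (edgeR adjusted p = 0.00193, 0.00759, 0.000388 and 0.00271). With the depth class over all libraries, 3 of the 14 tested fell, Tyms, Tk1 and Mcm5 (-0.89, -0.67 and -0.63), and DESeq2 called 9. Alternatives for the lists were chosen after seeing the data: that count was 0 with the group alone and 0 of 13 with a stricter count filter, 2 with corrected counts, 7 without a filter and 12 of 16 without the 4 libraries that stood apart. It ranged from 0 to 7 when single libraries were left out, with 0 without control 1, 2 or 3 or scKO 2, 3, 5, 6, 7 or 9. Within shallow libraries edgeR and DESeq2 called 0 of 10, of which 4 had an unadjusted p under 0.05 with either tool, and the median was -0.34 against -0.02 over all genes tested. The sums of the proliferation markers given above were lower in scKO in the deep libraries too, and their part in these values was not tested. Lower genes of DNA synthesis were already known from these libraries when the list was drawn up.

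In deep libraries, 7.03% of all genes tested fell and 7.31% rose. Of 7 E-type and A-type cyclins and activators of Cdk2, 4 fell in deep libraries: Ccna2, Cdc25a, Ccne1 and Ccne2 (log2 fold change -0.77, -0.71, -0.67 and -0.85), while Cdk7, Ccnh and Mnat1 of the Cdk-activating kinase had 0.05, 0.08 and -0.06. Those 4 calls held whichever single deep library was left out. Of 10 E2F and DP factors 2 fell, E2f1 (-0.39) and the repressor E2f7 (-1.12). The E2f1 call was lost whichever single deep library was left out, and the list had 0 calls without control 2 or without scKO 7. Of 8 MuvB and DREAM partners of the pocket proteins 3 fell, Mybl2 (-1.34), Foxm1 (-0.65) and Lin9 (-0.61), with Lin9 lost without control 2, scKO 6 or scKO 9. Of 11 ubiquitin ligase parts 2 fell, Skp2 (-0.59) and its cofactor Cks1b (-0.64), which together mark the inhibitor p27 for destruction; Skp2 was lost without control 2. Of 11 growth signals 1 fell, Fosl1 (-0.95), a share near that of all genes, and 3 fell without control 2. DESeq2 called the same genes of these 5 lists there except E2f1. Of 7 CDK inhibitors edgeR and DESeq2 called 0; Cdkn2d had an unadjusted p of 0.0369 in edgeR's fit across all genes, with a log2 fold change of 0.41. Cdkn1c, the inhibitor p57, averaged 119 ± 67.8 CPM (SD, n = 3) in deep scKO libraries and 47.0 ± 7.52 CPM (SD, n = 2) in deep controls. Its estimate was 1.33 (SE 0.61; edgeR adjusted p = 0.279), and it was called higher there without scKO 6. Cdkn1a was called lower there without control 2. With the depth class over all libraries edgeR called 0 genes of these 6 lists, though Ccna2, Cdc25a, Foxm1, Skp2, Cks1b, Fosl1 and Cdkn1c had an unadjusted p under 0.05, and DESeq2 called all of these but Fosl1 and Cdkn1c. Without the 4 libraries that stood apart edgeR called 7 genes of the 6 lists lower, Ccna2, Cdc25a, Foxm1, Mybl2, Cks1b, Skp2 and Fosl1. Without a count filter it called Cdkn1c higher and Ccne2 and E2f7 lower, and without scKO 1 Ccna2 lower. Within shallow libraries edgeR and DESeq2 called 0 genes of the 6 lists, and 1 growth signal had an unadjusted p under 0.05.

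**Figure D5:**
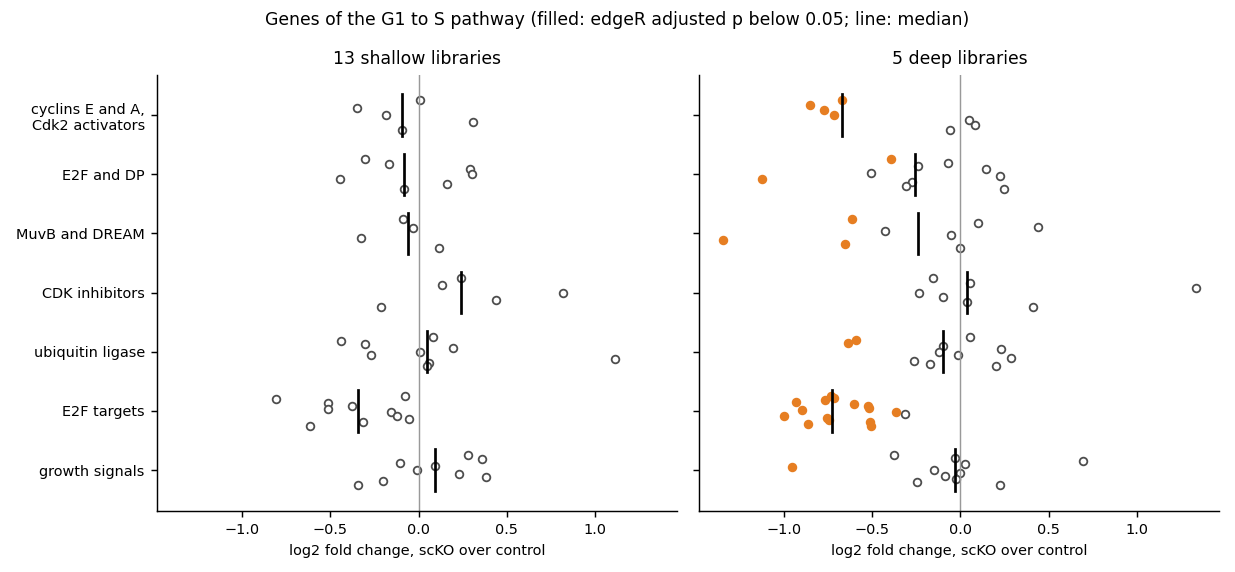
Log2 fold change of scKO over control (x axis) for each tested gene of 7 pathway lists, within the 13 shallow libraries (left) and the 5 deep libraries (right); filled points passed an edgeR adjusted p of 0.05 and vertical lines are list medians. In the deep libraries 15 of 16 E2F targets were called lower and 0 of 7 CDK inhibitors were called.

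On GRCm38, Cdk6 lies on the plus strand of chromosome 5 at 3341485 to 3531008, Rb1 spans 73183673 to 73325822 of chromosome 14 and Rbl1 157145893 to 157204534 of chromosome 2, both on the minus strand, and Rbl2 spans 91070057 to 91123844 of chromosome 8 on the plus strand. Cdk4 and Cdk2 lie on chromosome 10 at 127063534 to 127067920 and 128697939 to 128705031, Ccnd1 on chromosome 7 at 144929931 to 144939925, Ccnd2 on chromosome 6 at 127125162 to 127152193 and Ccnd3 on chromosome 17 at 47505051 to 47599691. Several of the 10 genes overlap another gene in GENCODE M21, and whether counting used the strand is not given in the sources used here. Cdk4 overlaps Tspan31, Cdk2 overlaps Pmel, Ccnd3 overlaps Bysl, Rbl2 overlaps Aktip, Ccnd1 overlaps LTO1, Ccnd2 and Cdk6 overlap antisense RNAs, and Rb1 overlaps Rcbtb2 and holds Lpar6, each on the opposite strand, and the pseudogene Gm14277 lies within Rbl1. Rb1 also overlaps Gm17233 and Mir687, which lie on its own strand. Reads from shared bases of such pairs cannot be told apart.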

How the data were processed

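RNA-seq was available for 18 libraries. The deposited table holds raw UMI counts for each gene, going by its name; the authors' values were not normalized. HISAT2 and HTSeq, with no version, and the build Rnor_6.0 are named in the submitters' processing notes, although the feature identifiers are mouse Ensembl genes. Symbols matched 50376 features; positions are from GENCODE M21 (GRCm38). The genes and lists were chosen with earlier results of these data known.

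Genes were filtered with filterByExpr, scaled by TMM and tested with the quasi-likelihood test of edgeR 4.0.16 (robust, R 4.3.3), with Benjamini-Hochberg adjustment over all genes tested and a threshold of 0.05. The fits were all libraries with depth class (total over or under 2000000) as a covariate, each class alone, and an interaction of group and class. Standard errors are the log2 fold change over the root of the F statistic. Collisions were corrected by the expected occupancy of 4096 UMIs. DESeq2 1.42.0 was an alternative. A count of 3, taken as a floor, is 0.501 to 7.14 CPM; it covers counting error only. Fits were checked on simulated counts with the same dispersion for every gene and no UMI limit. That check does not cover the limit or the libraries that stood apart. Genes named were the 10, up to 4 of each pathway list by p with depth class, and 3 of most similar pattern; others, such as those called in deep libraries, were named after their values were seen.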

Additional observations from a re-analysis of the deposited data

Results flagged for a closer look

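Rbl1 in control 4 stood at 35.8 CPM, far above the 6 other shallow controls, which lay between 11.1 and 21.6 CPM. The gap to the next library exceeded Dixon's critical value at 95%. It was the only library marked among 20 groups of libraries examined, 2 for each gene, and chance marks about 1 in 20. Without control 4 the Rbl1 log2 fold change with the depth class was -0.39, against -0.48 with it, and it was not an edgeR call in either case.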

How the results depend on the processing

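The count of the 10 genes called with the depth class was 2 with DESeq2 (Ccndbp1 and Rbl1) and 0 with the group alone, and 0 to 1 when single libraries were left out, with 0 without control 1. In deep libraries it was 3 with DESeq2, 5 with counts corrected for UMI collisions, 6 without a count filter and 2 to 4 when single libraries were left out, with 2 without scKO 6 or scKO 9. Over all genes, the 52 calls with the depth class became 390 with DESeq2, 359 without a count filter, 22 with a stricter filter, 617 without the 4 libraries that stood apart, 1 with the group alone and 11 to 216 when single libraries were left out. They moved by over 1.5 times without control 1, 2, 3, 4 or 7 (11, 14, 24, 25 and 96) and without scKO 1, 2, 3, 5, 6, 7, 8 or 9 (216, 33, 20, 26, 12, 13, 18 and 18). The 3 shallow calls became 6 with DESeq2, 13 without a filter, 0 without the 4 libraries and 1 to 5 with libraries left out, and the 1884 deep calls 996 to 1810, with 996 without scKO 7. Deep calls over all genes were 1284 with DESeq2, and at most 2316 in the settings that kept every deep library. The cause was not tested.

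Of 615 recomputed values for the 10 genes, 551 kept their direction and side of the threshold, 48 changed sign, 10 lost a call and 6 gained one. With the group alone Ccnd3 was 0.0896. In shallow libraries, without the 4 libraries that stood apart, Cdk4 was -0.27, Cdk6 -0.16 and Rbl2 -0.0072, and Ccnd3 was 0.0024 without a filter. In deep libraries Ccnd3 was 0.0071 without a filter and 0.012 with corrected counts. The deep minus shallow value of Ccndbp1 was -0.0037 with median-of-ratios factors, -0.0041 with DESeq2, -0.015 without a filter and -0.0738 without the 4 libraries, where Cdk4 had 0.0275 and Cdk2 -0.12. With single libraries left out, Ccnd3 ranged from -0.0513 to 0.0426 and Cdk4 from -0.13 to 0.0208 with the depth class; in shallow libraries Ccnd3 ranged from -0.0874 to 0.0636, Cdk4 from -0.0846 to 0.13, Cdk6 from -0.062 to 0.076, Rb1 from -0.10 to 0.12 and Rbl2 from -0.10 to 0.22; and in deep libraries Ccnd3 ranged from -0.0651 to 0.0517. Rbl1 failed the shallow filter in 5 of those fits.

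The groups share replicate numbers, but deviations of same-numbered libraries correlated at -0.0658 to 0.249 across genes, so the numbers were not taken as pairs. With the replicate number as a block, the calls over all genes with the depth class were 14, Ccndbp1 among them (log2 fold change 0.83), with 0 of the 14 E2F targets; Cdkn1c was then called higher, and in shallow libraries the blocked values of Ccnd2, Cdk4 and Cdk6 were 0.0459, -0.10 and -0.16. No such block could be fitted in deep libraries, where the groups share no number. Depth limits Rbl1, with 3 to 27 shallow counts, and the 4096 limit bounds what deep libraries show for Cdk4 and Ccnd1.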

Other observations

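Ratios of counts between 2 genes need no scaling; these pairs were chosen after their values were seen and carry no test. The count ratio of Cdk6 to Rb1 was 0.856 to 0.978 in deep scKO libraries and 2.04 and 2.55 in deep controls, and 0.973 to 3.13 in shallow scKO libraries and 1.08 to 3.26 in shallow controls. The count ratio of Rbl1 to Rbl2 was 0.457 to 0.612 in deep scKO libraries and 0.814 and 0.928 in deep controls, and 0.12 to 0.889 in shallow scKO libraries and 0.32 to 1.38 in shallow controls. Both ratios separated the groups in deep libraries and overlapped in shallow ones. The deep separation is no separate result. Cdk6 and Rbl1 lay below both deep controls in every deep scKO library, and Rb1 and Rbl2 above them, so both ratios had to separate. The count ratio of Cdk4 to Cdk2 was also computed, and its groups overlapped in deep and in shallow libraries.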
